A study of Mus musculus with 6 samples.

Results

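The genes described here encode proteins that take up, activate and oxidise fatty acids, together with the nuclear receptors that fatty acids bind. They were chosen by gene symbol from a list of 38, among the features of a mouse expression array that the platform annotation gave exactly 1 symbol. Of the 38 genes, 35 were measured, each by 1 feature, among 22180 genes in all. Acsl1, Acsl3 and Cpt1b had no feature that named them alone and are not analysed here. RNA came from follicle stem cells that were sorted out of mouse skin on CD34 and α6-integrin at postnatal day 49, and was hybridised to 6 Affymetrix Mouse Gene 2.0 ST arrays, 1 per sample. The 3 wild-type (WT) samples were compared with 3 samples of K14-sPLA2-IIA transgenic mice (TG). In TG mice the keratin 14 promoter, active in the basal epidermis and the outer root sheath, drives secreted phospholipase A2 group IIA, so the transgene is not confined to the sorted cells. The labels do not say whether a sample was 1 mouse or a pool, or give strain or sex. The p-values therefore measure only the spread between these samples, which may be technical.

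Secreted phospholipases A2 cut fatty acids from membrane phospholipids, and the comparison asked about the genes that would handle such fatty acids. A free fatty acid is carried into the cell with the help of transport proteins and joined to coenzyme A by acyl-CoA synthetases. The carnitine shuttle then brings it into the mitochondrion, where repeated rounds of β-oxidation shorten it to acetyl-CoA and pass electrons to the respiratory chain. Peroxisomes begin the oxidation of very long and branched chains. Peroxisome proliferator-activated receptors (PPARs) sense fatty acids and switch on many of these genes, and in epidermis they are also known for roles in barrier lipid synthesis and wound repair.

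Values are the authors' deposited expression values, read here as log2, so a difference of 1 is a 2-fold change. Pla2g2a, which encodes the transgene's enzyme, differed as the labels state, by 6.38 ± 0.27 (SE, limma) in TG minus WT (adjusted p = 0.00255). It was the only gene of 22180 past an adjusted p of 0.05 in limma, or 0.00451% of genes. The sort markers were uneven between arrays. Cd34 read 9.78, 9.89 and 13.07 in WT and 11.57, 9.65 and 12.42 in TG, whereas Itga6, encoding α6-integrin, stayed between 10.01 and 10.49. In each genotype array 3 had the lowest mean marker levels of sebocytes, suprabasal keratinocytes and T cells, and TG array 1 lay between TG arrays 2 and 3. Differences without both arrays numbered 3 are given below for genes whose values they moved. That comparison keeps TG array 1, where Cd34 lay above WT arrays 1 and 2, so it does not even out the sort.

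No fatty acid gene passed the adjusted threshold in limma, in either direction, and the adjusted p was 0.99996 for each of the 35. An unadjusted p under 0.05 was reached by 3 genes, or 8.57% of the 35 against 2.77% of all genes. These were Acadl, higher in TG (1 gene, where 1.93% of all genes were higher), and Slc27a3 and Acox3, lower in TG (2 genes, where 0.843% of all genes were lower). The TG mean lay above the WT mean for 19 genes, or 54.3% against 47.9% of all genes, and below it for 16. The median difference was 0.019, against -0.0075 over all genes. Over the 35 genes the differences ran from -0.74 (Slc27a3) to 1.27 (Pdk4). The arrays of the genotypes did not overlap for 2 genes, or 5.71% of the 35, below the 7.2% of all genes.

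The arrays limited how small a difference could be seen. The half-width of the 95% interval of a difference had a median of 0.546 over the 35 genes, and ran from 0.297 for Decr1 to 1.57 for Pdk4. The interval excluded a 2-fold change in both directions for 27 genes, and a 1.5-fold change in both directions for 9. For the remaining genes changes of those sizes were not detectable or not excluded with 3 arrays per genotype. Among the 27 were Acox2, Ehhadh and Hadhb, whose genotype means of 5.79 to 6.37 lay near the array medians of all features (5.90 to 5.99). No detection value was available, so for such features a narrow interval may say little about the gene.

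**Figure D1:**
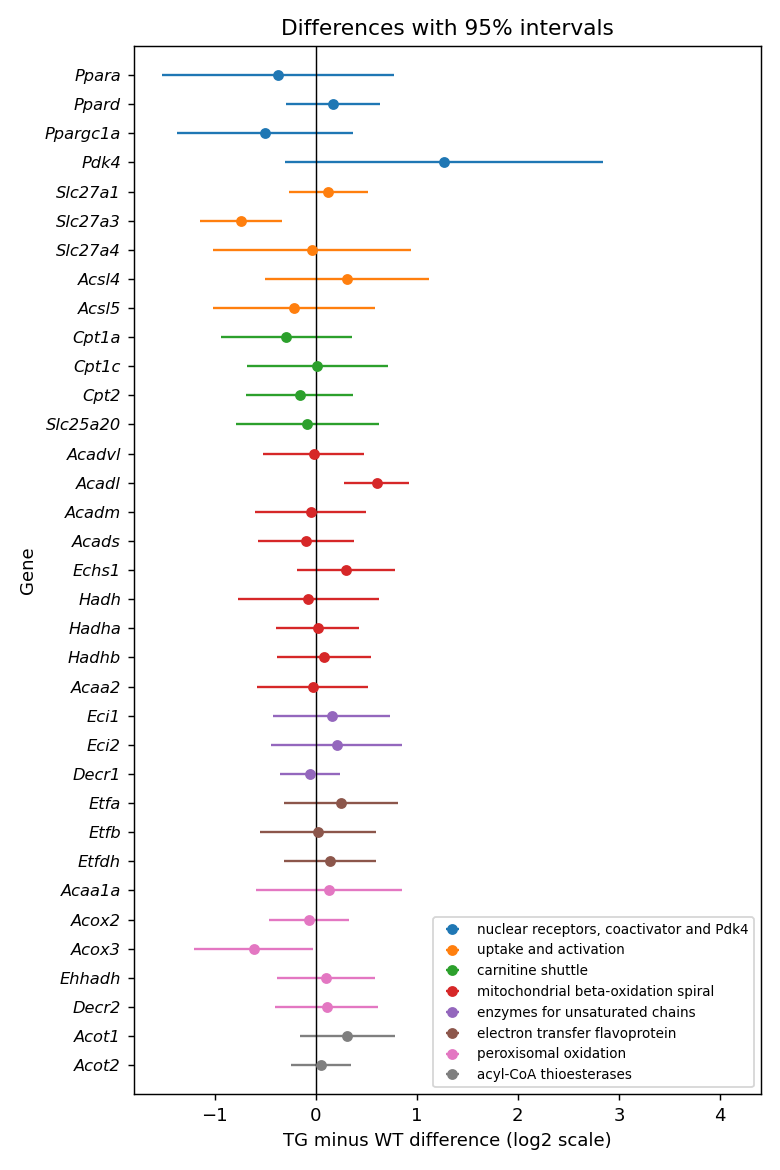
TG minus WT difference on the log2 scale for each of the 35 genes (points), with 95% intervals from limma (bars), coloured by role. The intervals of Acadl, Slc27a3 and Acox3 do not cross 0, before any adjustment for the 22180 genes tested, and that of Pdk4 is the widest.

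Promoter sequences are shown for the genes that the results below turn on, so that their start regions can be compared. Each is the 250 bases before the annotated start, 5′ to 3′ on the gene's strand, from RefSeq on build GRCm38.p6, in which 35 of the 38 genes had an entry. Acadl lies at chr1:66863310-66863559 (minus strand), Slc27a3 at chr3:90389939-90390188 (minus), Acox3 at chr5:35582784-35583033 (plus), Pdk4 at chr6:5496279-5496528 (minus), Cpt1a at chr19:3323051-3323300 (plus) and Hadhb at chr5:30155003-30155252 (plus). Capitals mark matches on either strand to GGGCGG (the GC box), to CCAAT (the CCAAT box), to TGANTCA (an AP-1 element) and to AGGTCA, the core element that PPARs and related nuclear receptors bind.
Acadl: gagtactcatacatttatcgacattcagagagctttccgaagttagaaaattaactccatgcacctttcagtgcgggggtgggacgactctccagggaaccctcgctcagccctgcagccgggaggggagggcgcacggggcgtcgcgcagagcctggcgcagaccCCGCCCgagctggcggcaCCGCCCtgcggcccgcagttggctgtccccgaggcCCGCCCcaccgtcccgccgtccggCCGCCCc
Slc27a3: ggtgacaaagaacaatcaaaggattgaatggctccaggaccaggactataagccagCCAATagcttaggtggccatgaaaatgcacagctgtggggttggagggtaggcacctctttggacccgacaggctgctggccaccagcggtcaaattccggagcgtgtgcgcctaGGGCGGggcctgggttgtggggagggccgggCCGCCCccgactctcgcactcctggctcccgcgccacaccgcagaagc
Acox3: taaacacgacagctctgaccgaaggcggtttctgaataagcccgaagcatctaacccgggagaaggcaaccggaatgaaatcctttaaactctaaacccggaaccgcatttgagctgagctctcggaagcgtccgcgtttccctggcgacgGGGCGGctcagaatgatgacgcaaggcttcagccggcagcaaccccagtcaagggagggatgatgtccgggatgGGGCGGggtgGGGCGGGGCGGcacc
Pdk4: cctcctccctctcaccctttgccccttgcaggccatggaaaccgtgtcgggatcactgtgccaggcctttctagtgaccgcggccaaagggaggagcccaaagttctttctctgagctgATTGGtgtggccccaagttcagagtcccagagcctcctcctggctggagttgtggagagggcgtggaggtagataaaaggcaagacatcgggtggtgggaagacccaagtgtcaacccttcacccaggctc
Cpt1a: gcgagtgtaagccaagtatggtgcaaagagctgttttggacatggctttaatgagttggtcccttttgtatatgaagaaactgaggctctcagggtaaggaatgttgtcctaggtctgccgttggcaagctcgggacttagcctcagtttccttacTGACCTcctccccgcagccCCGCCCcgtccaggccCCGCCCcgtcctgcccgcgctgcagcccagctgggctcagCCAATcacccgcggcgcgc
Hadhb: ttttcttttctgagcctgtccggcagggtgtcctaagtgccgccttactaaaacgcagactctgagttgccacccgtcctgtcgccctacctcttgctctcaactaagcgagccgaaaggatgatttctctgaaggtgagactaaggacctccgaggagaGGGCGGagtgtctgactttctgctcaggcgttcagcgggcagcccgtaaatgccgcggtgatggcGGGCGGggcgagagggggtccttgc

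The Acadl window held 4 GC boxes and the Acox3 window 4, of which the last 2 overlap by 1 base. The Slc27a3 window held 2 GC boxes and 1 CCAAT box, and the Pdk4 window 1 CCAAT box and no GC box. Of these 6 windows, the Cpt1a window alone held AGGTCA, whose bases lie 94 to 89 before the start. The 35 genes with an entry are not the same set as the 35 measured, since they include Acsl1 and Acsl3 and lack Acaa2 and Decr1. Over their 39 windows (some genes have several starts), AGGTCA was found in 12.8%, against 14.0% of all 32851 promoter windows of the same length. The full PPAR element, a direct repeat of AGGTCA with any base between the copies, was in 0 of the 39 windows and in 0.0335% of all. TCAAGGTCA, an extended form, was in 0 of the 39 and in 0.387% of all. Strings this rare would seldom occur in 39 windows, so their absence there says nothing about these genes. GC boxes were in 66.7% of the 39 windows against 32.7% of all, CCAAT in 51.3% against 33.8%, and TGANTCA in 5.13% against 6.75%. The 6 windows shown were 58.8% to 68.0% G and C, where the median of all windows was 52.4%. The part of base composition in the GC box share was not tested. The GC box, CCAAT and AP-1 motifs were added after the array values were seen. A match is a string of letters and not a shown binding site.

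Among the nuclear receptors and their partners, Pdk4 and Ppara had wider intervals than any other of the 35 genes. Pdk4, a kinase that shuts pyruvate out of the mitochondrial citric acid cycle when fatty acids are burned and is a known PPAR target, read 6.38, 6.47 and 6.14 in WT and 7.78, 8.95 and 6.08 in TG. On TG arrays 1 and 2 it lay above all WT arrays, and on TG array 3 below them. Its mean was 6.33 ± 0.17 in WT and 7.60 ± 1.44 in TG (SD, n = 3 each), a difference of 1.27 ± 0.66 (SE) whose 95% interval ran from -0.30 to 2.84. The unadjusted p was 0.0964 in limma, or 0.0346 when blocked by replicate number. That pairing was taken from these array values and is not given by the labels. Immediate early genes, which many stimuli and tissue dissociation switch on, were likewise highest on TG arrays 1 and 2. Unlike for Pdk4, their mean on TG array 3 was not the lowest of the 6 arrays. The mean level of their 22 listed genes was 9.75, 9.55 and 9.19 on the WT arrays and 10.64, 10.91 and 9.72 on the TG arrays. The part of such stimulation in the Pdk4 values was not tested. Without both arrays numbered 3 the Pdk4 difference was 1.9 (unadjusted p = 0.00405 in limma), and without TG array 3 alone it was 2.0, with an adjusted p still above the threshold. Without TG array 2 it was 0.6.

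Ppara, the PPAR that drives fatty acid oxidation in liver, read 8.56, 8.32 and 7.20 in WT and 7.87, 8.29 and 6.81 in TG. Both arrays numbered 3 were lowest, and the genotypes overlapped, with a difference of -0.37 ± 0.48 (SE). Ppard, the main PPAR of keratinocytes, was steadier, at 9.24, 9.59 and 9.13 in WT and 9.67, 9.61 and 9.19 in TG, a difference of 0.17 ± 0.19. Ppargc1a, encoding a coactivator that promotes mitochondrial biogenesis, read 6.22, 6.09 and 6.64 in WT and 6.35, 6.11 and 4.99 in TG. Its low value was TG array 3 alone. The difference was -0.50 ± 0.36 on all arrays and 0.074 without both arrays numbered 3.

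Among the genes of uptake and activation, Slc27a3 differed most. It encodes a member of the fatty acid transport protein family with acyl-CoA synthetase activity. It read 10.36, 10.10 and 10.37 in WT and 9.32, 9.49 and 9.80 in TG, so all 3 TG arrays lay below all 3 WT arrays. Over all genes, 3.21% separated in that direction, and Slc27a3 was the 1 such gene of the 35, or 2.86%. The mean was 10.28 ± 0.15 in WT and 9.54 ± 0.24 in TG (SD, n = 3 each). The difference of -0.74 ± 0.17 (SE) corresponds to 1.67-fold lower in TG (95% interval -1.14 to -0.34, unadjusted p = 0.00363 in limma). By exact permutation of the arrays, two-sided, p was 0.1, below which 3 against 3 arrays cannot go. Its arrays numbered 3 were the highest of their genotype, unlike most of the 35 genes, and without both of them the difference was -0.82.

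The 2 other measured transporters did not follow Slc27a3. Slc27a1, a transporter known from muscle and fat, read 10.09, 10.26 and 10.47 in WT and 10.63, 10.29 and 10.27 in TG, a difference of 0.13 ± 0.17 (SE), or 0.29 without both arrays numbered 3. Slc27a4, which the mouse epidermis needs for its barrier, read 8.90, 9.50 and 8.23 in WT and 8.78, 9.49 and 8.26 in TG. Arrays with the same number matched closely there, and the difference was -0.04 ± 0.41. Acsl4, the acyl-CoA synthetase that prefers arachidonic acid, read 8.41, 8.94 and 8.39 in WT and 8.79, 9.58 and 8.30 in TG, with TG array 2 highest and a difference of 0.31 ± 0.34, or 0.51 without both arrays numbered 3. Acsl5, a synthetase of mitochondria and endoplasmic reticulum, differed by -0.21 ± 0.34. Its arrays numbered 3, at 10.15 in WT and 10.16 in TG, lay below the other arrays, which read 10.60 to 11.20, and without them the difference was -0.32.

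**Figure D2:**
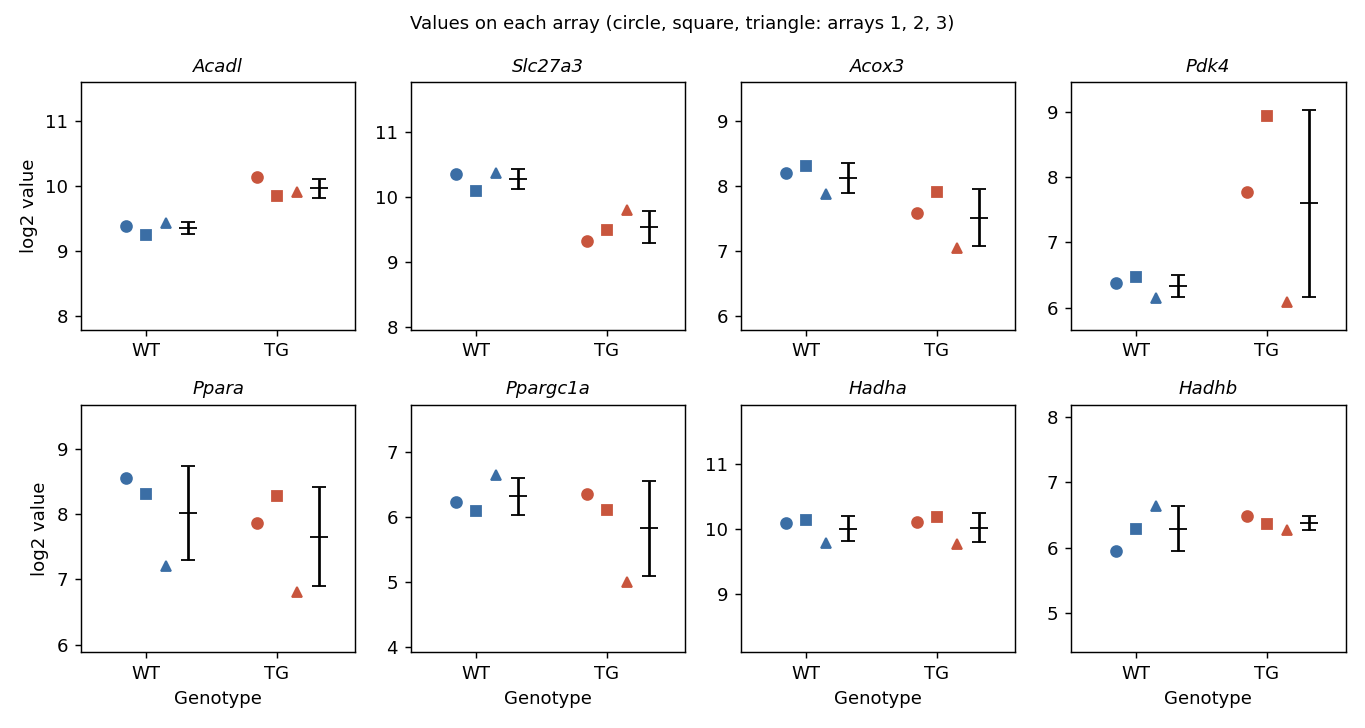
Log2 values of 8 genes on the 3 WT arrays (blue) and 3 TG arrays (red), with the mean and SD of each genotype in black and the same span of log2 units in every panel. The genotypes separate for Acadl and Slc27a3, whereas Pdk4, Ppara and Ppargc1a have TG array 3 (triangle) as the lowest of the 6.

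The genotypes overlapped for each of the carnitine shuttle genes. Cpt1a encodes the enzyme that sets the pace of entry into mitochondria and is blocked by malonyl-CoA. It read 11.12, 10.98 and 10.64 in WT and 10.80, 11.01 and 10.06 in TG. The genotypes overlapped, with TG array 3 lowest, and the difference was -0.29 ± 0.27 (SE, 95% interval -0.94 to 0.36). It was -0.14 without both arrays numbered 3 and -0.009 without TG array 3 alone. Cpt2, the inner membrane partner, differed by -0.16 ± 0.22, and without both arrays numbered 3 by 0.07. Slc25a20, the carnitine-acylcarnitine carrier between them, differed by -0.08 ± 0.30. Cpt1c, the isoform best known from brain, differed by 0.02 ± 0.29 and, unlike Cpt1a, was highest on array 3 in WT.

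Of the 9 genes of the mitochondrial β-oxidation spiral, Acadl differed most. It encodes long-chain acyl-CoA dehydrogenase, which in mouse takes the first step for long chains. Its WT arrays read 9.39, 9.25 and 9.43 and its TG arrays 10.13, 9.85 and 9.90, so every TG array lay above every WT array. Over all genes, 3.99% separated in that direction, and Acadl was the 1 such gene of the 35, or 2.86%. The mean was 9.36 ± 0.09 in WT and 9.96 ± 0.15 in TG (SD, n = 3 each). The difference of 0.60 ± 0.14 (SE) corresponds to 1.52-fold higher in TG (95% interval 0.28 to 0.93, unadjusted p = 0.0033 in limma). The exact permutation p was again 0.1. Leaving out 1 array at a time kept the difference between 0.52 and 0.66.

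The sister dehydrogenases, which act on other chain lengths, did not share the Acadl pattern. Acadvl, for very long chains, differed by -0.02 ± 0.21 (SE), Acadm, for medium chains, by -0.05 ± 0.23 and Acads, for short chains, by -0.10 ± 0.20. Acadm read 10.76, 11.05 and 10.43 in WT and 10.75, 11.00 and 10.35 in TG, and the 3 differences between arrays with the same number lay between -0.09 and -0.01. For the later steps the genotypes overlapped as well. Echs1, the short-chain enoyl-CoA hydratase gene, read 9.82, 9.64 and 9.32 in WT and 10.07, 10.04 and 9.57 in TG, a difference of 0.30 ± 0.20. The TG array was the higher in each of the 3 pairs with the same number, although the genotypes overlapped. The unadjusted p of Echs1 in limma was 0.184, or 0.0314 when blocked by replicate number, a pairing taken from these array values. Hadh, the short-chain hydroxyacyl-CoA dehydrogenase gene, read 11.82, 12.06 and 11.76 in WT and 12.19, 12.10 and 11.13 in TG. TG array 3 was the lowest of the 6, and the difference was -0.07 ± 0.29, or 0.2 without both arrays numbered 3. Acaa2, the thiolase gene of the last step, differed by -0.03 ± 0.23.

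Hadha and Hadhb encode the α and β subunits of the mitochondrial trifunctional protein and start 272 bases apart on opposite strands, so that 228 bases of their promoter windows are the same sequence. Hadha read 10.10, 10.14 and 9.79 in WT and 10.11, 10.20 and 9.77 in TG, a difference of 0.02 ± 0.17 (SE). Hadhb read 5.94, 6.28 and 6.64 in WT and 6.48, 6.36 and 6.27 in TG, a difference of 0.08 ± 0.20, or 0.31 without both arrays numbered 3. Neither separated the genotypes. In WT the features ran in opposite order on array 3, where Hadha was lowest and Hadhb highest. Levels of different features cannot be set against each other on these arrays.

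The genes for unsaturated chains and for electron transfer differed by less than the spread between arrays. Eci1 and Eci2, encoding isomerases that shift double bonds, differed by 0.16 ± 0.24 and 0.21 ± 0.27 (SE), and Decr1, the mitochondrial dienoyl-CoA reductase gene, by -0.05 ± 0.12. Eci2 read 7.60, 7.70 and 7.59 in WT and 8.11, 8.20 and 7.20 in TG. It was thus above all WT arrays on TG arrays 1 and 2 and below them on TG array 3. Without both arrays numbered 3 its difference was 0.5 (unadjusted p = 0.00867 in limma). Etfa and Etfb, whose products form the flavoprotein that collects electrons from the dehydrogenases, differed by 0.25 ± 0.24 and 0.02 ± 0.24. Etfdh, whose product hands these electrons to ubiquinone, differed by 0.15 ± 0.19, or 0.27 without both arrays numbered 3.

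In the peroxisomal group, Acox3 was lower in TG. It encodes an acyl-CoA oxidase of branched chains. It read 8.20, 8.30 and 7.87 in WT and 7.58, 7.91 and 7.04 in TG. TG array 2 lay just above WT array 3, so the genotypes overlapped, but the TG array was the lower in all 3 pairs with the same number, with differences of -0.62, -0.39 and -0.83. The mean was 8.13 ± 0.22 in WT and 7.51 ± 0.44 in TG (SD, n = 3 each). The difference of -0.61 ± 0.25 (SE) corresponds to 1.53-fold lower (95% interval -1.20 to -0.03, unadjusted p = 0.0431 in limma). The exact permutation p was 0.2. Blocked by replicate number, a pairing taken from these array values, the unadjusted p in limma was 0.00359. Without the block the unadjusted p in limma was above 0.05 when WT array 1, WT array 2, TG array 1 or TG array 3 was left out (0.106, 0.124, 0.0798 and 0.104).

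The other peroxisomal genes showed no such difference. Acox2, encoding the branched-chain oxidase of bile acid synthesis in liver, differed by -0.07 ± 0.17 (SE), or -0.2 without both arrays numbered 3. Acaa1a, the peroxisomal thiolase gene, differed by 0.13 ± 0.30, Ehhadh, the bifunctional enzyme gene, by 0.10 ± 0.20 and Decr2, the peroxisomal dienoyl-CoA reductase gene, by 0.11 ± 0.21. The thioesterase genes Acot1 (cytosolic) and Acot2 (mitochondrial), whose products free fatty acids from coenzyme A, differed by 0.32 ± 0.20 and 0.05 ± 0.13. Acot1 read 10.37, 10.25 and 10.27 in WT and 10.90, 10.72 and 10.21 in TG, again with TG array 3 apart from TG arrays 1 and 2. They are close paralogs, and whether each feature reads its own gene alone was not tested.

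**Figure D3:**
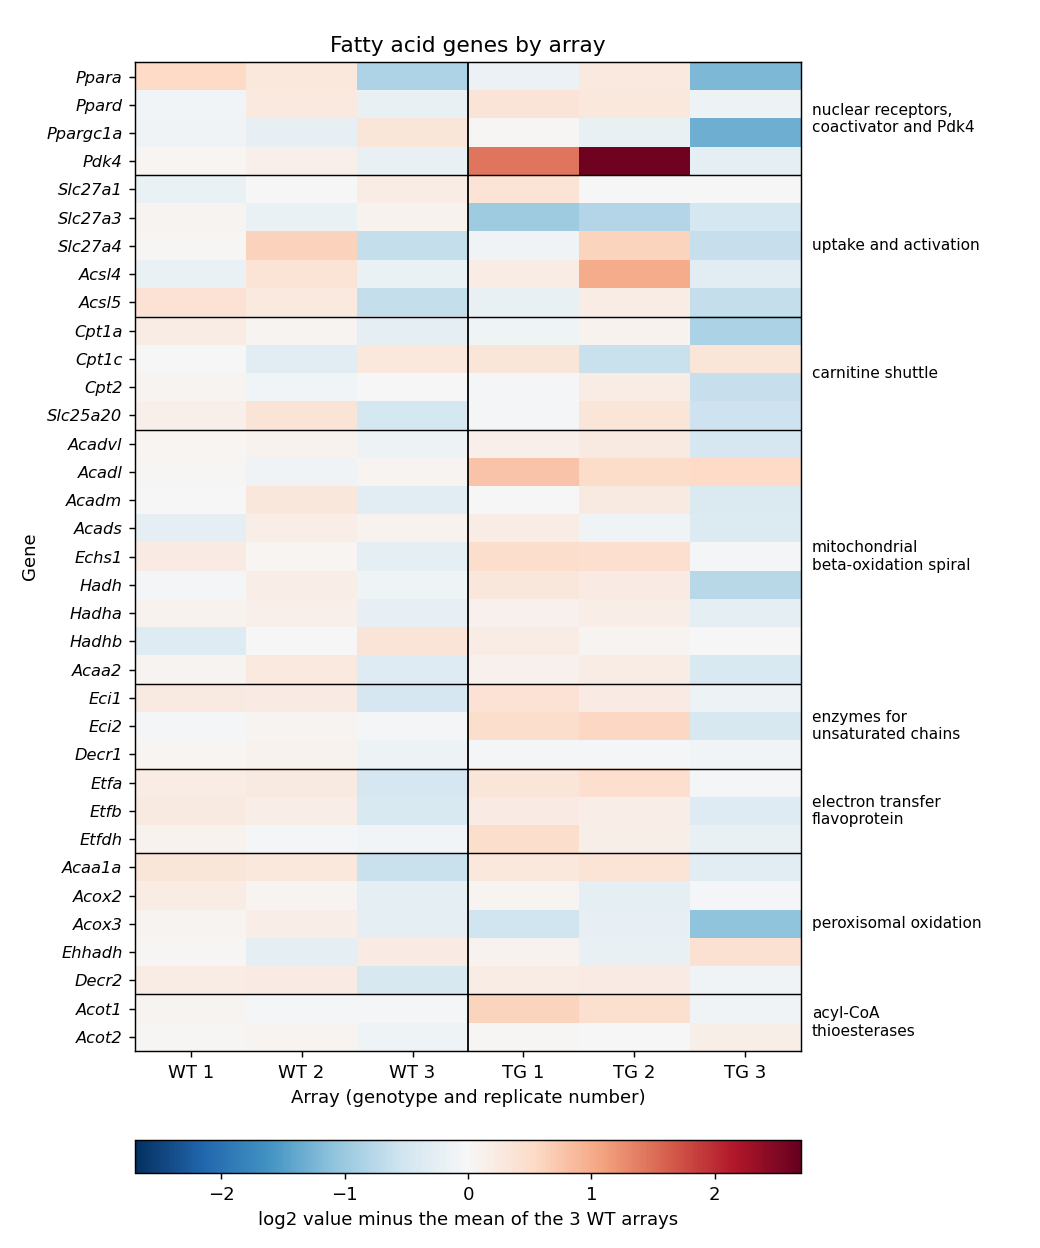
Log2 value of each of the 35 genes on the 6 arrays, minus the mean of the 3 WT arrays, with genes in rows grouped by role and arrays in columns. Acadl is above 0 and Slc27a3 and Acox3 are below 0 on all 3 TG arrays, Pdk4 is far above 0 on TG arrays 1 and 2 and below 0 on TG array 3, and many rows are below 0 on WT array 3 and TG array 3.

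The largest shared variation of these genes was between arrays of 1 genotype. Array 3 read below both other arrays of its genotype for 25 of the 35 genes in WT, where it did so for 48.3% of all genes, and for 29 in TG, where it did so for 46.6%. It did so in both genotypes for 23, or 65.7% of the 35 against 34.5% of all genes. It was the highest in both for 3 genes, Slc27a3, Cpt1c and Ehhadh, or 8.57% against 23.5% of all genes. The median gap between array 3 and the mean of the other 2 arrays was -0.286 in WT and -0.526 in TG over the 35 genes, and -0.0716 and -0.0562 over all genes. Slc27a4, Acsl5, Acaa1a, Slc25a20 and Ppara had gaps beyond -0.6 in both genotypes. Acadl was level there, with gaps of 0.11 in WT and -0.09 in TG.

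Markers of several other cell types moved with the arrays numbered 3. The mean of 11 sebocyte genes, a cell type rich in lipid metabolism, was 8.60, 8.48 and 6.98 on the WT arrays and 8.32, 8.59 and 7.32 on the TG arrays, with the array-3 value lowest in each genotype for 6 of the 11. Among its genes, Elovl3 read 4.57 on WT array 3 and 4.61 on TG array 3, against 7.61 to 8.10 elsewhere, whereas Scd1 read 9.23, 9.88 and 9.33 in TG and was not lowest on array 3. The mean of 12 suprabasal genes was 11.68, 11.77 and 9.89 in WT and 10.62, 11.63 and 9.50 in TG, and 11 of the 12 were lowest on array 3 in both. The mean of 9 T-cell genes was 8.53, 8.96 and 7.41 in WT and 7.87, 9.28 and 7.19 in TG, lowest on array 3 in both for 8 of the 9. The bulge stem cell list, of 12 measured genes, was higher on array 3, at 11.04 against 9.85 and 9.82 in WT and 10.89 against 10.85 and 9.86 in TG, so that TG array 1 lay with TG array 3. The means of 7 endothelial genes and 7 fibroblast genes were also highest on array 3 in each genotype, at 6.23 and 7.41 in WT and 6.45 and 7.63 in TG. Single genes went the other way, with array 3 lowest in both genotypes for 2 of the 12 bulge genes (Itga6 and Krt14) and 1 fibroblast gene (Pdgfra). The mean of 8 melanocyte genes did not follow the array number. It was lowest on array 3 in WT, at 6.68, and highest there in TG, at 7.34. The part of these cells in the array-3 values of the fatty acid genes was not tested. In such bulk samples fewer cells of a type and less RNA per cell cannot be told apart. The adipocyte and skeletal muscle lists, of 8 and 10 genes, stayed between 5.73 and 5.99 on all 6 arrays.

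**Figure D4:**
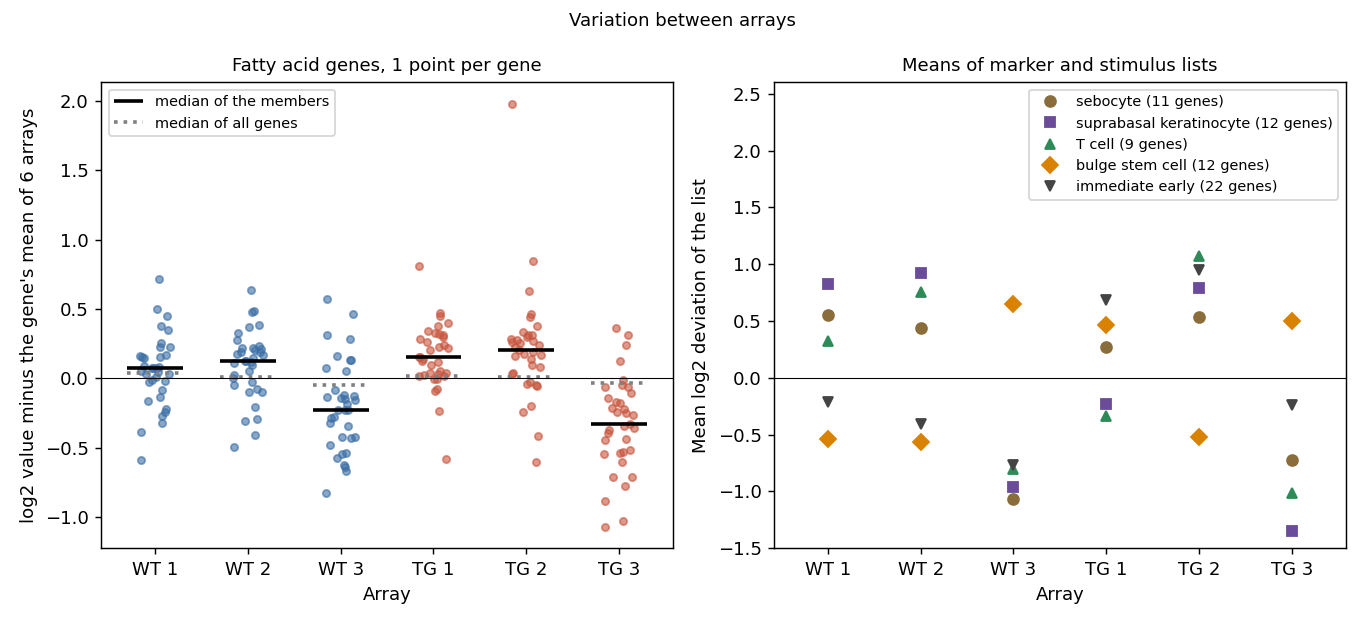
Left, each fatty acid gene's log2 value minus its own mean of the 6 arrays, by array, with the median of the 35 genes (black line) and of all 22180 genes (grey dotted line). Right, the mean of the same deviation over 5 gene lists; on the arrays numbered 3 the fatty acid genes' medians are -0.226 in WT and -0.33 in TG, and the sebocyte, suprabasal and T-cell means are below 0 while the bulge mean is above 0.

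Without both arrays numbered 3, the count at an unadjusted p under 0.05 was 7 of the 35 genes, where 5.92% of all genes passed. The genotypes were still uneven there, since Cd34 read 11.57 on TG array 1 against 9.78 and 9.89 on WT arrays 1 and 2. The part of this in the differences was not tested. Acadl (0.67), Pdk4 (1.9), Acot1 (0.51), Eci2 (0.5) and Echs1 (0.33) were higher in TG, and Slc27a3 (-0.82) and Acox3 (-0.5) lower. None passed the adjusted threshold in limma. Blocked by replicate number on all 6 arrays, the count was 5, where 8.45% of all genes passed. Acadl, Pdk4 and Echs1 were the higher 3 (4.59% of all genes were higher) and Slc27a3 and Acox3 the lower 2 (3.86% of all genes were lower). The TG array was the higher in all 3 pairs for 5 genes and the lower for 5, each 14.3% of the 35, against 14.6% and 16.5% of all genes. By that count the 35 genes lay near the background.

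Other genes of fatty acid handling were read in the same fit. Of 80 further genes listed, 72 were measured, with 38 differences above 0 and 34 below, a median of 0.0070 and none past the adjusted threshold in limma. At an unadjusted p under 0.05, 2 were higher in TG (1.93% of all genes were) and 0 lower (0.843% of all genes were). Blocked by replicate number, 3 were higher (4.59% of all genes were) and 4 lower (3.86% of all genes were). The added ones were Lpl, the lipoprotein lipase gene, higher, and Acacb, Mgll, Rxra and Echdc3, lower. Dbi, encoding the acyl-CoA binding protein, read 7.62, 7.31 and 7.30 in WT and 8.22, 7.79 and 7.86 in TG, a difference of 0.55 ± 0.17 (SE). Acot7, a cytosolic thioesterase gene, read 6.67, 6.95 and 7.23 in WT and 7.40, 7.60 and 7.40 in TG, a difference of 0.52 ± 0.17. Neither gene's genotypes overlapped. Plin2, a lipid droplet coat gene and known PPAR target, also separated, with 0.35 ± 0.18. These were the 3 of the 72 whose TG arrays all lay above the WT arrays, where 3.99% of all genes did so. Pex11a, a peroxisome division gene, differed by 0.26 ± 0.19 with overlap.

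On the lower side of these further genes, Abcd4 differed by -0.28 ± 0.14 (SE) and Slc27a2 by -0.13 ± 0.12, both without overlap. They were the 2 of the 72 that separated in that direction, where 3.21% of all genes did so. Acacb, whose malonyl-CoA restrains the carnitine shuttle, differed by -0.40 ± 0.22, Mgll, the monoacylglycerol lipase gene, by -0.44 ± 0.34 and the peroxisomal transporter gene Abcd2 by -0.23 ± 0.17, all with overlapping arrays. Angptl4, another PPAR target, read 7.05, 6.30 and 7.33 in WT and 7.47, 7.39 and 6.76 in TG, a difference of 0.31 ± 0.31. The uptake gene Cd36 differed by 0.14 ± 0.22. Fabp5, the fatty acid binding protein gene of epidermis, read 13.29, 13.08 and 10.98 in WT and 13.16, 13.26 and 12.00 in TG. Pparg, the PPAR of sebocytes and fat cells, read 7.00, 6.50 and 4.64 in WT and 6.20, 7.21 and 4.62 in TG. Both were lowest on the arrays numbered 3 and differed between genotypes by 0.36 ± 0.66 and -0.03 ± 0.81.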

How the data were processed

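Total RNA of sorted hair follicle stem cells was measured on 6 arrays, 3 WT and 3 TG, grouped by genotype from the labels. The values are the authors' deposited log2 expression values, 1 per array and feature. Log base 2 was inferred, since the values run from 2.85 to 14.42 with nearly equal quartiles (medians 5.90 to 5.99), and if the base differs the fold changes do not hold. Per the submitters' processing notes, the software was Transcriptome Analysis Console and Affymetrix Expression Console 1.4.1. Summarisation and scaling: not given in the sources used here. No detection value was available, so no gene is called absent, and the number of arrays limits the precision.

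Of 41345 features, 23521 carried exactly 1 gene symbol, 1814 several and 16010 none. The brightest 1-symbol feature per gene was used, giving 22180 genes, with no filter on level. TG was compared with WT in R 4.3.3 by limma 3.58.1 (eBayes after lmFit, with group as the sole term, two-sided). P-values were adjusted over all genes by Benjamini-Hochberg, at a threshold of 0.05. The fit was tested on simulated data. The 35 genes, the further lists and the naming rule (all 35, fixed comparison genes, the first entries of marker lists) were chosen with earlier results of these data known. The 38 symbols were chosen by function, not by values. Marker lists of T cells, macrophages and Langerhans cells, melanocytes, endothelium, fibroblasts, sebocytes, adipocytes, muscle, suprabasal keratinocytes and the bulge were summarised without a test.

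Deviations from the genotype mean correlated over all genes between arrays of the same number at 0.2, 0.67 and 0.74 (numbers 1, 2 and 3), so an alternative fit was blocked by that number. This check, and not the labels, is the basis of the pairing. Other alternatives were quantile normalization, genes above the median level, the mean of a gene's features, all features, array weights, and leaving out each array or both numbered 3.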

Additional observations from a re-analysis of the deposited data

How the results depend on the processing

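No fatty acid gene passed the adjusted threshold in limma under any of the 13 alternatives. Of the 35, 12 kept their direction under all of them, although some alternatives could not turn a direction, as given below. Among the 12 were Acadl (0.52 to 0.75), Slc27a3 (-0.87 to -0.63), Acox3 (-0.81 to -0.38) and Pdk4 (0.6 to 2). The count over all genes stayed at 1 (Pla2g2a), except that it was 0 without TG array 1 and 0 without both arrays numbered 3. The count of the 35 at an unadjusted p under 0.05 was 3 on all arrays and 5 with the replicate block (where 8.45% of all genes passed). It was 9 with array weights (where 14.1% of all genes passed) and 7 without both arrays numbered 3 (5.92% of all genes). When 1 array was left out the count ran from 2 to 6, where 1.29% to 4.79% of all genes passed. The 6 were without TG array 3, where 2.94% of all genes passed. At the adjusted threshold the replicate block changed no call, and at an unadjusted p under 0.05 it changed counts of the further lists, as given beside them. The median difference ran from -0.09 to 0.16 when 1 array was left out. Directions turned for 22 genes when 1 array was left out, and their differences then ran from -0.78 to 0.053 for Ppara, -0.36 to 0.27 for Slc27a4, -0.038 to 0.6 for Acsl4, -0.54 to 0.0022 for Acsl5, -0.14 to 0.32 for Cpt1c, -0.34 to 0.073 for Cpt2, -0.32 to 0.16 for Slc25a20, -0.15 to 0.2 for Acadvl, -0.2 to 0.13 for Acadm, -0.24 to 0.045 for Acads, -0.26 to 0.27 for Hadh, -0.09 to 0.15 for Hadha, -0.09 to 0.26 for Hadhb, -0.2 to 0.16 for Acaa2, -0.073 to 0.31 for Eci1, -0.19 to 0.2 for Etfb, -0.018 to 0.32 for Etfdh, -0.17 to 0.33 for Acaa1a, -0.2 to 0.031 for Acox2, -0.051 to 0.25 for Ehhadh, -0.11 to 0.22 for Decr2 and -0.0056 to 0.092 for Acot2. With quantile normalization Hadha turned to -0.00036 and Etfb to -0.017. With array weights Ppargc1a turned to 0.044, Acadvl to 0.07, Acads to 0.098, Hadh to 0.16 and Acot2 to -0.024. Without both arrays numbered 3 Ppargc1a turned to 0.074, Cpt2 to 0.07, Acadvl to 0.13, Acads to 0.088, Hadh to 0.2, Etfb to -0.0015, Decr2 to -0.0071 and Acot2 to -0.054. None of these genes was past a threshold on all arrays, and the cause was not tested. The mean of features and the use of all features could move no direction, since each of the 35 genes had 1 feature. The level filter kept 31 of the 35 genes, so Ppargc1a, Hadhb, Acox2 and Ehhadh were not tested under it. The level filter, for the genes it kept, and the replicate block also leave each difference as it was, so their unchanged directions are no check. Signal over background was not available, so low values can understate a difference.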

Other observations

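The 9 measured macrophage and Langerhans cell genes had a median difference of -0.155, the 8 melanocyte genes -0.09, the 7 endothelial genes 0.109 and the 7 fibroblast genes 0.253. The median was 0.0991 for the 11 sebocyte genes, -0.236 for the 9 T-cell genes, -0.414 for the 12 suprabasal genes and 0.318 for the 12 bulge genes. For adipocyte and muscle genes it was -0.0839 and -0.0324. Cd207, Adgre1 and Csf1r, of Langerhans cells and macrophages, differed by -0.12, -0.52 and -0.15, and the melanocyte genes Dct, Tyr and Tyrp1 by -0.14, 0.03 and -0.04. No gene of these lists passed the adjusted threshold in limma. At an unadjusted p under 0.05 in limma the macrophage gene Adgre1 alone was lower (0.843% of all genes were) and 0 genes higher (1.93% of all genes were). Of the 12 suprabasal genes 11 differed below 0. Blocked by replicate number, 3 suprabasal genes (Flg2, Cdsn and Aloxe3) and Adgre1 were lower at an unadjusted p under 0.05 in limma. With that block 3.86% of all genes were lower and 4.59% higher. The higher genes of these lists were 3 fibroblast genes (Col1a1, Pdgfra and Lum), the sebocyte gene Far2 and the endothelial gene Tek. The 22 immediate early genes had a median difference of 0.813, with 21 above 0, 11 higher at an unadjusted p under 0.05 (1.93% of all genes were) and none past the adjusted threshold in limma. Blocked by replicate number, 19 of the 22 were higher, against 4.59% of all genes.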
